A study of Homo sapiens with 28 samples.

Results

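The sites described here are the CTCF peaks of GP5d cells that carried no cohesin peak. They were selected on the measured peak calls, as CTCF peaks under control siRNA that shared not a single base with a RAD21 peak or an SMC3 peak under control siRNA. Of 44027 control CTCF peaks, 11788 met this rule (26.8%, 95% interval 26.4 to 27.2). Another 27720 overlapped peaks of both cohesin subunits and serve as the comparison, called cohesin-bound below. The remaining 4519 overlapped RAD21 alone (1969) or SMC3 alone (2550). The control CTCF, RAD21 and SMC3 peak calls chose the sites, so these counts are a description and not a result.

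CTCF is a zinc finger protein that binds a long DNA motif and marks the borders of chromatin loops. Cohesin is a ring, with SMC3 and RAD21 among its core subunits, that extrudes chromatin until it meets CTCF and stalls there. CTCF therefore usually appears on chromatin together with cohesin, while CTCF can bind its motif without the ring. NIPBL loads cohesin, and monomethylated lysine 4 of histone H3 (H3K4me1) marks enhancers and promoter flanks.

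GP5d is an established colon adenocarcinoma line. Its cells received an siRNA against RAD21 or a neutral siRNA at 50 nM, and chromatin was harvested at 72 hours for immunoprecipitation and sequencing (ChIP-seq). Each of 11 targets had 1 library under RAD21 siRNA and 1 under control siRNA, and 6 further libraries were IgG backgrounds. No measure of RAD21 RNA or protein was used here. The siRNA named in a separate label field conflicted with the titles of most siRAD21 libraries, and the titles were followed. The catalogue number given for the H3K4me1 antibody is known for one against histone H3 in general, and that of the rabbit MYC antibody for a mouse one, so both libraries are named here by their titles only. RAD21 itself had 19752 peaks under RAD21 siRNA and 36204 under control siRNA.

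Because no library was repeated, differences between the siRNAs have no replicate check and were not tested. All intervals are 95% intervals that cover counting error only. ChIP libraries held 1747770 to 15263937 filtered tags (sequenced fragment ends) under RAD21 siRNA and 3629966 to 19926326 under control siRNA. CTCF had 4163512 tags under RAD21 siRNA and 12025319 under control siRNA, a ratio of 0.346, and the part of this difference in the lost CTCF calls below was not tested. The lists of JUND and NIPBL under control siRNA held 0 peaks with a false discovery rate (FDR) under 5%, so none of their control peaks passed that limit. Single peaks in these lists still had small p-values, such as the control NIPBL peaks at some sites named below. Under RAD21 siRNA, 718 of 12319 JUND peaks, 936 of 7264 MYC peaks and 1441 of 6068 NIPBL peaks had an FDR under 5%. A missing peak says that no call was made at a p cutoff of 1e-05, not that the protein was absent. In bulk chromatin, a site bound in fewer cells and a site bound less firmly in each cell cannot be told apart. Sequences of these sites are not shown, since no genome of the build of the coordinates (hg18) was used here.

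CTCF sites without cohesin were narrow and weak. Their median width was 1278 bp (middle 80% of peaks, 887 to 1806 bp), against 1780 bp (1291 to 2416 bp) at cohesin-bound peaks. They held a median of 30 tags (17 to 72), against 105 tags (40 to 211). Tag density was also lower, with a median of 23.8 tags per kb against 57.6. On the authors' scale of −10 × log10 p, called the peak score here, the sites had a median of 90.9 and cohesin-bound peaks 553. The median fold enrichment over IgG was 9.80 at the sites and 26.9 at cohesin-bound peaks. CTCF peaks with 1 of the subunits lay between the groups, with a median width of 1425 bp, 41 tags and a score of 136. The sites made up 26.8% of CTCF peaks, 21.3% of the bases in CTCF peaks and 11.7% of the tags in them. An FDR under 5% was reached by 5358 sites (45.5%, 44.6 to 46.4) and by 93.3% of cohesin-bound peaks, where 77.7% of all CTCF peaks reached it.

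The share of CTCF peaks without cohesin followed CTCF strength step by step. The control CTCF list was cut into deciles by score. In the weakest decile, with scores of 50.0 to 66.0, 71.0% of peaks (69.7 to 72.4) had no cohesin. In the fifth decile the share was 22.5% (21.2 to 23.7), and in the strongest decile it was 0.977% (0.708 to 1.31). Among cohesin-bound peaks of the weakest decile the cohesin peaks were themselves weak, with a median score of 98.0 for RAD21 and 105.5 for SMC3. In the strongest decile these medians were 717 and 747, far above the lowest score in the files, which is 50. At like score the widths of both groups lay closer together. In the weakest decile the median width was 1059 bp at the sites and 1265 bp at cohesin-bound peaks, whereas in the seventh it was 1816 bp and 1799 bp.

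**Figure D1:**
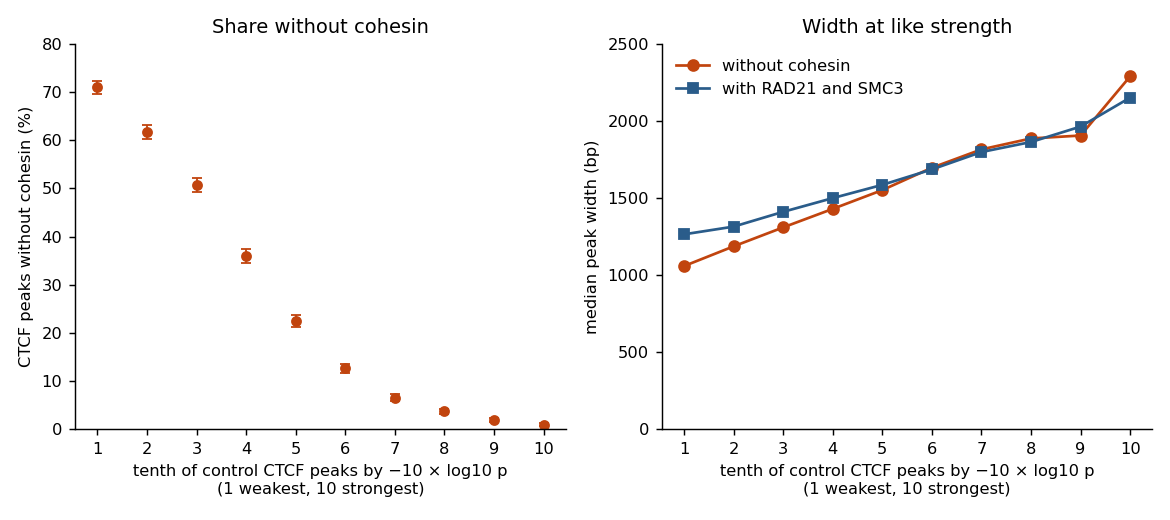
Left, share of control CTCF peaks without a cohesin peak (%, with 95% Clopper-Pearson intervals) in each decile of the list by peak score; right, median width (bp) of CTCF peaks without cohesin and with RAD21 and SMC3 in the same deciles. The share is 71.0% in the weakest decile and 0.977% in the strongest, and the widths in the fifth decile are 1552 bp without cohesin and 1586 bp with it.

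At the border of the rule lay weak CTCF peaks on both sides. The 113 sites within 250 bp of a control cohesin peak had a median score of 92.2 and a median width of 1301 bp. The 49 CTCF peaks that overlapped a cohesin peak by at most 250 bp had 75.2 and 1375 bp. The nearest site, at chr19:13009653-13011234, had a CTCF score of 51.0 and 2 bp between it and a cohesin peak. The next, at chr7:75458845-75459727, had a score of 68.4 and a gap of 8 bp. Just outside the rule, a CTCF peak at chr16:51170987-51172154 overlapped an SMC3 peak by 3 bp and had a score of 62.9. Another at chr18:3762489-3764002 overlapped one by 6 bp and had 216. Few sites lay at this border. The nearest control cohesin peak was within 1000 bp at 613 sites (5.2%) and within 10000 bp at 4279 (36.3%), with a median gap of 15864 bp.

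The sites were spread through the genome much like other CTCF peaks. Their share of the CTCF peaks of a chromosome ran between 23.2% (21.3 to 25.3) on chromosome X and 29.4% (27.1 to 31.9) on chromosome 16, with a median of 27.0% over 23 chromosomes. For 5 of the chromosomes the interval did not contain the share over all CTCF peaks. Chromosomes 12 and X lay below it, with 24.1% and 23.2%, and chromosomes 16, 17 and 19 above it, with 29.4%, 29.1% and 29.4%. Of 25 CTCF peaks on unplaced or alternative sequences, 5 were without cohesin. Along the chromosome the sites were mixed with cohesin-bound peaks. The nearest CTCF peak of a site was cohesin-bound in 62.0% of cases (61.1 to 62.9) and another site without cohesin in 27.6% (26.8 to 28.4). For a cohesin-bound peak these shares were 63.9% and 26.0%. The median distance to the next CTCF summit was 15743 bp for the sites and 16539 bp for cohesin-bound peaks.

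**Figure D2:**
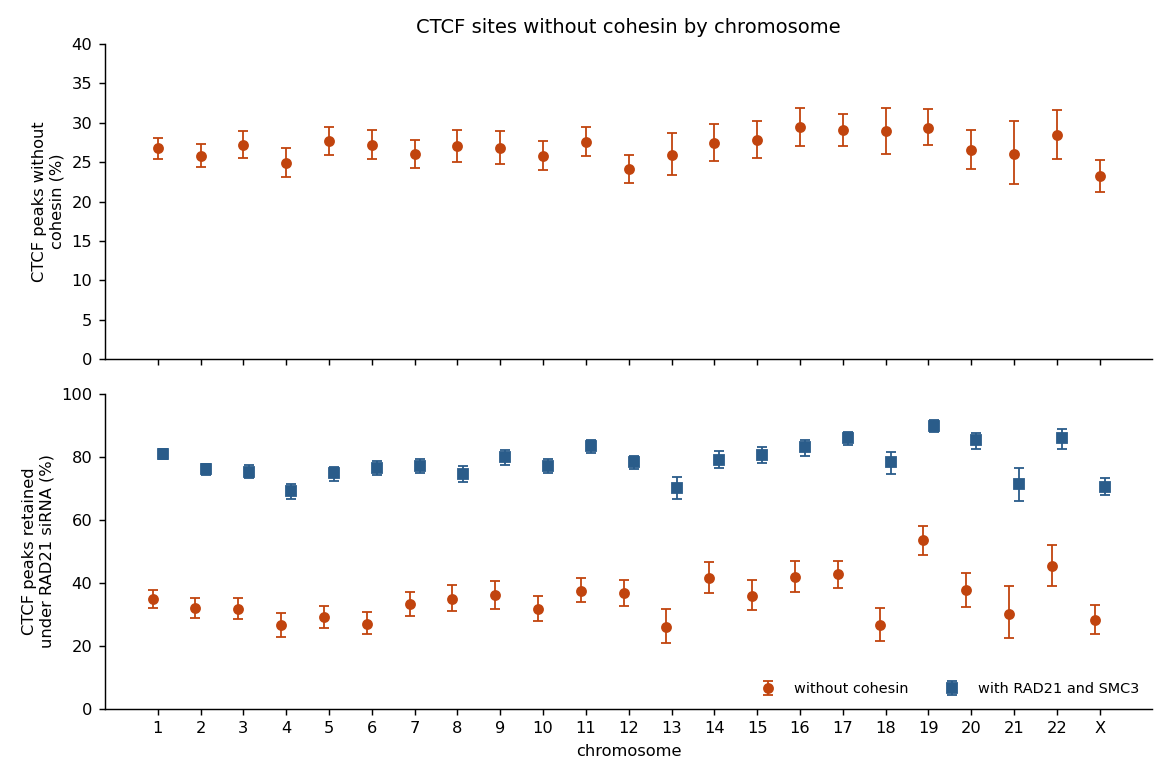
Top, share of control CTCF peaks without cohesin on each chromosome (%); bottom, share of CTCF peaks found again under RAD21 siRNA (%) on each chromosome, without cohesin and with RAD21 and SMC3; bars are 95% Clopper-Pearson intervals. The top shares stay between 23.2% and 29.4%, while the retained share of sites without cohesin spans 26.0% on chromosome 13 to 53.5% on chromosome 19.

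CTCF itself was found again under RAD21 siRNA at 4071 of the 11788 sites (34.5%, 33.7 to 35.4), against 78.1% (77.6 to 78.6) of cohesin-bound peaks and 63.1% of all control CTCF peaks. A peak counted as found again, or retained, when a siRAD21 CTCF peak overlapped it by at least 1 bp. The gap was smaller within classes of CTCF score. Among sites with a score of 50 to 100, CTCF was retained at 17.8% (16.8 to 18.7), against 30.9% (28.8 to 33.0) of cohesin-bound peaks. From 100 to 200 it was retained at 40.9% (39.2 to 42.6) of sites and 43.1% (41.4 to 44.9) of cohesin-bound peaks. From 200 to 400 the order was the other way, with 70.0% (67.5 to 72.4) of sites and 65.9% (64.6 to 67.2) of cohesin-bound peaks. At 400 and above the shares were 94.3% (92.3 to 95.9) and 93.6% (93.2 to 94.0). With nearly all peaks found again in the strongest class, it leaves little room for a difference.

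Averaged over 5 strata of CTCF score with Mantel-Haenszel weights, called at like strength below, the retained share of the sites minus that of cohesin-bound peaks was −3.76 percentage points (−5.02 to −2.49). The sign depended on the strata and on the weakest peaks. With strata of tags the difference was 2.66 points (1.48 to 3.84), among CTCF peaks with an FDR under 5% it was 0.715 (−0.795 to 2.22), and without strata −43.6. With strata of fold enrichment −16.7 points (−18.0 to −15.4) remained. The retained sites had a median control score of 157, and those not found again 76.7. Under RAD21 siRNA the CTCF peaks at the sites stayed in the lower part of their own list, with a median percentile of 31.8 by score, against 60.3 for those at cohesin-bound peaks.

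**Figure D3:**
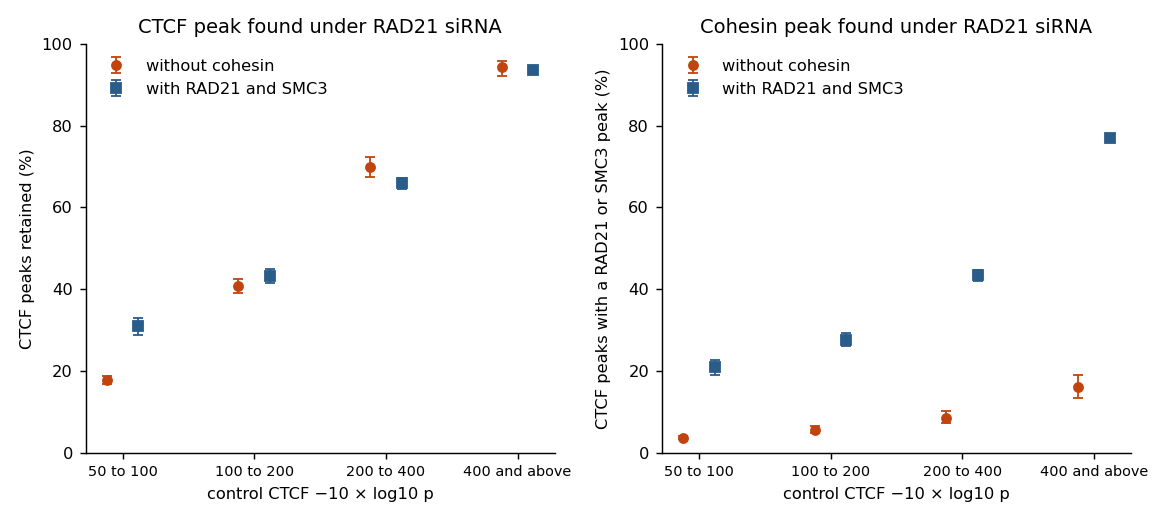
Share of control CTCF peaks (%, with 95% Clopper-Pearson intervals) that overlapped a CTCF peak (left) or a RAD21 or SMC3 peak (right) under RAD21 siRNA, in 4 classes of control CTCF score, for peaks without cohesin and with RAD21 and SMC3. The CTCF shares are 94.3% and 93.6% in the strongest class, while the cohesin shares are 16.1% and 77.0% there.

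Retention varied between chromosomes. On chromosome 19, CTCF was found again at 53.5% of the 449 sites (48.7 to 58.1), on chromosome 22 at 45.5% of 242 (39.1 to 52.0) and on chromosome 17 at 42.7% of 546 (38.5 to 46.9). On chromosome 13 it was found again at 26.0% of 281 (21.0 to 31.5) and on chromosome 4 at 26.4% of 537 (22.8 to 30.4). At like strength the sites on chromosome 19 exceeded those on all other chromosomes by 17.6 points (13.4 to 21.7), and those on chromosome 13 were below them by a difference of −7.02 points (−11.7 to −2.35). Cohesin-bound CTCF peaks had their highest retained share on chromosome 19 too, at 89.8%, and their lowest on chromosome 4, at 69.0%. The control H3K4me1 share of the sites was highest on chromosomes 22, 17 and 19, with 35.95%, 34.1% and 33.2%. It was 22.1% on chromosome 13 and 21.0% on chromosome 4. The order was not the same on all chromosomes. The H3K4me1 share was 10.6% on chromosome X, where CTCF was found again at 28.2% of the sites. On chromosome 20 it was 22.8%, with 37.7% found again, and on chromosome 6 it was 25.5%, with 27.1%. A link between the H3K4me1 share and retention was not tested.

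Sites that also held another target mostly had higher retained shares of CTCF. Where a siRAD21 H3K4me1 peak was present, CTCF was found again at 46.5% of 3265 sites (44.8 to 48.2), and elsewhere at 29.9% (29.0 to 30.9), a difference at like strength of 12.5 points (10.8 to 14.3). With H3K4me1 taken from the control list the difference was 7.68 points (5.92 to 9.44). MYC, a growth regulator found at active promoters, went with a difference of 19.6 points (16.4 to 22.8) for siRAD21 peaks and 15.0 (12.2 to 17.8) for control peaks. JUND, an AP-1 subunit, had 18.8 (16.1 to 21.5) and 3.16 (−3.15 to 9.46). HNF4A, a nuclear receptor of the intestinal epithelium, had 14.6 (10.6 to 18.6) and −2.35 (−6.60 to 1.91). For all 8 other targets the larger difference came with peaks called under the same siRNA as the retained CTCF peak. NIPBL had 18.85 (15.3 to 22.4) and 1.99 (−1.87 to 5.86), while KLF5 had nearly equal values of 11.2 and 10.7. Of 7562 sites with none of the 8 other targets and no cohesin under either siRNA, CTCF was retained at 2144 (28.4%, 27.3 to 29.4), against 45.6% (44.1 to 47.1) of the other 4226 sites.

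The other targets were called at a minority of the sites, about as often as at CTCF peaks in general under control siRNA. None of the 8 had a peak at 8230 sites under RAD21 siRNA (69.8%, 69.0 to 70.6) and at 8308 under control siRNA (70.5%, 69.7 to 71.3). Over all control CTCF peaks these shares were 72.7% and 69.7%. At cohesin-bound peaks they were 74.3% (73.8 to 74.8) and 69.5% (69.0 to 70.1). H3K4me1 without any of the 6 transcription factors covered 16.0% of the sites under RAD21 siRNA and 15.4% under control siRNA, where all CTCF peaks had 15.9% and 15.2%. At least 1 of the factors was found at 1650 sites under RAD21 siRNA (14.0%, 13.4 to 14.6) and at 1639 under control siRNA (13.9%, 13.3 to 14.5), where all CTCF peaks had 11.2% and 14.0%. A factor together with H3K4me1 was found at 11.7% and 10.6%, against 8.88% and 10.2% of all CTCF peaks. A factor without H3K4me1 was found at 2.32% and 3.27%, against 2.34% and 3.77% of all CTCF peaks. At least 4 of the 8 targets met at 415 sites under RAD21 siRNA (3.52%, 3.20 to 3.87) and at 217 under control siRNA (1.84%, 1.61 to 2.10), where all CTCF peaks had 2.26% and 2.56%.

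NIPBL, the cohesin loader, had peaks at 576 sites under RAD21 siRNA (4.89%, 4.50 to 5.29) and at 456 under control siRNA (3.87%, 3.53 to 4.23). The shares of all control CTCF peaks were 3.28% and 6.80%. At cohesin-bound peaks the order was the other way round, with 2.45% (2.27 to 2.64) under RAD21 siRNA and 8.09% (7.77 to 8.42) under control siRNA. At like strength the sites minus cohesin-bound peaks came to 3.01 points (2.44 to 3.58) under RAD21 siRNA and −3.76 points (−4.42 to −3.10) under control siRNA. The control lists of NIPBL, H3K4me1, HNF4A, JUND, KLF5, MYC and REST were called against the same control rabbit IgG library of 8916252 tags. The control RAD21 and SMC3 calls that chose the sites used that library too. Control shares of these targets in both groups may thus be set in part by the rule. How far this holds for their differences between the siRNAs was not tested. The NIPBL list was shorter under RAD21 siRNA, with 6068 peaks against 11694, and the library had 0.352 of the tags. NIPBL peaks were found under both siRNAs at 181 sites, under RAD21 siRNA alone at 395 and under control siRNA alone at 275.

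H3K4me1 was the target found most often at the sites. It had peaks at 3265 sites under RAD21 siRNA (27.7%, 26.9 to 28.5) and at 3072 under control siRNA (26.1%, 25.3 to 26.9), where all CTCF peaks had 24.8% and 25.4%. Cohesin-bound peaks had 23.03% (22.5 to 23.5) and 24.8% (24.3 to 25.3). At like strength the sites exceeded cohesin-bound peaks by 6.13 points (4.89 to 7.38) under RAD21 siRNA and by 2.88 points (1.65 to 4.12) under control siRNA. Most marked sites had the mark under both siRNAs. Of those with H3K4me1 under control siRNA, 86.2% (84.9 to 87.4) had it under RAD21 siRNA as well, against 74.2% (73.2 to 75.3) of cohesin-bound peaks with the mark. CTCF peaks with 1 subunit were near the sites, at 85.15% (83.1 to 87.1), and all CTCF peaks had 78.75%. H3K4me1 peaks at the sites had a median score of 277 under RAD21 siRNA and 291 under control siRNA. Those at cohesin-bound peaks had 233 and 256, and the whole lists 174 and 201.

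Among the 6 factors, JUND had the largest difference in number between the siRNAs. It had peaks at 1107 sites under RAD21 siRNA (9.39%, 8.87 to 9.93) and at 180 under control siRNA (1.53%, 1.31 to 1.77), where all CTCF peaks had 6.95% and 1.95%. The siRAD21 JUND library was deeper, with 2.02 times the tags and 12319 peaks against 4678. At cohesin-bound peaks JUND had 5.62% (5.35 to 5.89) and 2.06% (1.89 to 2.23). At like strength the sites minus cohesin-bound peaks came to 4.77 points (3.98 to 5.55) under RAD21 siRNA and −0.848 points (−1.24 to −0.456) under control siRNA. The control value turned to 0.0610 with strata of tags.

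MYC had peaks at 767 sites under RAD21 siRNA (6.51%, 6.07 to 6.97) and at 994 under control siRNA (8.43%, 7.94 to 8.95), with 4.47% and 8.35% of all CTCF peaks. The MYC libraries had nearly equal ChIP tags, with a ratio of 1.02, but IgG libraries of 4101535 and 8916252 tags. The lists held 7264 and 13589 MYC peaks, of which 936 and 13589 had an FDR under 5%. Cohesin-bound peaks had 3.41% (3.20 to 3.63) and 8.07% (7.75 to 8.40), so that MYC was about as frequent in both groups under control siRNA but 1.91 times as frequent at the sites under RAD21 siRNA. At like strength the differences were 4.04 points (3.39 to 4.69) and 0.347 points (−0.479 to 1.17). Of the sites with MYC under control siRNA, 46.1% (42.9 to 49.2) had it under RAD21 siRNA, against 24.7% (22.9 to 26.5) of the cohesin-bound peaks with MYC. CTCF peaks with 1 subunit had 37.75% (33.2 to 42.4), and all CTCF peaks 32.05%.

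HNF4A and KLF5, factors of the intestinal epithelium, were less frequent than MYC under both siRNAs, and than JUND under RAD21 siRNA only. HNF4A had peaks at 476 sites under RAD21 siRNA (4.04%, 3.69 to 4.41) and at 357 under control siRNA (3.03%, 2.73 to 3.35), where 3.23% and 3.80% of all CTCF peaks had it. KLF5 had peaks at 158 sites under RAD21 siRNA (1.34%, 1.14 to 1.56) and at 460 under control siRNA (3.90%, 3.56 to 4.27), with 0.852% and 4.09% of all CTCF peaks. The siRAD21 KLF5 list held 1781 peaks, against 7791. Relative to cohesin-bound peaks, HNF4A was 1.44 times as frequent at the sites under RAD21 siRNA and 0.754 times under control siRNA. KLF5 was 2.25 times and 0.986 times as frequent. At like strength HNF4A differed by 1.00 points (0.458 to 1.55) under RAD21 siRNA and −2.14 (−2.69 to −1.59) under control siRNA, and KLF5 by 0.757 (0.453 to 1.06) and −1.24 (−1.82 to −0.656). The control value of KLF5 turned to 0.400 among CTCF peaks with an FDR under 5%.

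REST and RFX2 were rare at the sites. REST, a repressor of neuronal genes, had peaks at 135 sites under RAD21 siRNA (1.15%, 0.961 to 1.35) and at 113 under control siRNA (0.959%, 0.791 to 1.15), where all CTCF peaks had 1.07% and 0.970%. RFX2, a factor of ciliary genes, had peaks at 60 sites under RAD21 siRNA (0.509%, 0.389 to 0.655) and at 132 under control siRNA (1.12%, 0.938 to 1.33), where all CTCF peaks had 0.418% and 0.915%. Under RAD21 siRNA all 8 targets, these included, were more frequent at the sites than at cohesin-bound peaks of like strength. That held for 5 and 20 strata of score, for strata of width and of tags, without strata, and for CTCF peaks or cohesin peaks with an FDR under 5%. Under control siRNA the differences for H3K4me1 and RFX2 were above 0 and that for NIPBL below 0 in all of these settings. The interval for MYC held 0 in the main setting, HNF4A came to about 0 with strata of width, and JUND, KLF5 and REST changed sign between settings. CTCF peaks with 1 subunit had shares near those of the sites under RAD21 siRNA. The shares were 27.8% for H3K4me1, 8.74% for JUND, 5.64% for MYC and 4.18% for NIPBL. HNF4A had 3.83%, KLF5 1.15%, REST 1.2% and RFX2 0.6%. Without strata, each was above that of cohesin-bound peaks, so the higher shares were not particular to sites without either subunit.

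**Figure D4:**
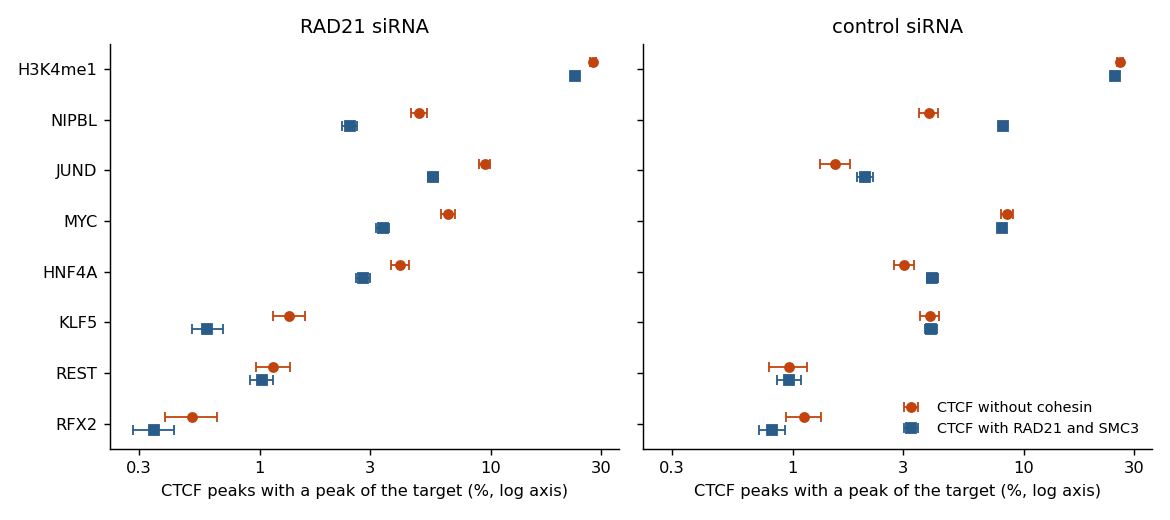
Share of CTCF peaks (%, log axis, with 95% Clopper-Pearson intervals) that overlapped a peak of each of 8 other targets under RAD21 siRNA (left) and control siRNA (right), for CTCF peaks without cohesin and with RAD21 and SMC3. Under RAD21 siRNA the share without cohesin is the higher for all 8 targets, for example 9.39% against 5.62% for JUND, and under control siRNA the order differs between targets.

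Among the strongest sites, all 8 other targets were more frequent than at cohesin-bound peaks under RAD21 siRNA. Under control siRNA the intervals of H3K4me1, MYC and KLF5 lay above the cohesin-bound shares. Of the 11788 sites, 683 had a CTCF score of 400 or more. H3K4me1 was present at 290 of these under RAD21 siRNA (42.5%, 38.7 to 46.3) and at 255 under control siRNA (37.3%, 33.7 to 41.1), against 23.5% and 25.6% of the 17261 cohesin-bound peaks in that range. Of all CTCF peaks in that range, 26.3% had H3K4me1 under control siRNA, and of those with 1 cohesin subunit 33.98%. Such shares were not computed for H3K4me1 under RAD21 siRNA or for the other targets. The higher shares given here are therefore not shown to be particular to sites without either subunit. JUND was present at 19.8% (16.8 to 22.9) under RAD21 siRNA and 2.20% (1.23 to 3.596) under control siRNA, against 5.65% and 1.93%. MYC was present at 15.7% (13.02 to 18.6) and 18.4% (15.6 to 21.6), against 3.51% and 7.97%. NIPBL was present at 11.1% (8.87 to 13.7) and 7.91% (5.995 to 10.2), against 2.40% and 8.81%. Under control siRNA the intervals of JUND and NIPBL at these sites thus held the shares of cohesin-bound peaks, and HNF4A and REST were at 3.81% and 1.17% of the sites, against 3.68% and 1.07%. Even so, 385 of the strongest sites (56.4%, 52.6 to 60.1) held none of the 8 targets under control siRNA, against 67.3% of cohesin-bound peaks. A control cohesin peak lay within 1000 bp of 30 of them (4.39%).

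The 5 strongest sites by CTCF score without cohesin under either siRNA lay on chromosomes 14, 16 and 19. Coordinates are in hg18, and chromosomes 8 and Y and unplaced sequences were left out of all sites named here. The strongest lay at chr14:49397401-49400517, with 611 tags, a score of 3100 and a control cohesin peak 548 bp away. CTCF there had a score of 993 under RAD21 siRNA, and H3K4me1 had 281 under RAD21 siRNA and 263 under control siRNA. The second, at chr19:51540398-51543596, had a CTCF score of 2439 under RAD21 siRNA and 2228 under control siRNA. It carried strong H3K4me1 under both, with 2749 and 1978, and NIPBL, JUND and RFX2 peaks under RAD21 siRNA. The third, at chr14:106220582-106222993, had CTCF scores of 1028 and 2148, and nothing else was called there in any list. At chr16:3090309-3092505 CTCF had 411 and 1957, and at chr19:14029518-14031963 it had 1355 and 1932, with H3K4me1 under both siRNAs at each. All 5 of these strongest sites kept CTCF.

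The strongest sites with no siRAD21 CTCF peak within 1000 bp had lower scores. They lay at chr12:50650098-50652082, with a control CTCF score of 1229, at chr1:158854491-158856389, with 653, at chr13:48719441-48721896, with 634, and at chr7:86380956-86382991, with 607. H3K4me1 covered the site on chromosome 12, with a score of 460 under RAD21 siRNA and 1087 under control siRNA. At the sites on chromosomes 1 and 7 a cohesin peak without CTCF was called under RAD21 siRNA. Its RAD21 score was 61.4 on chromosome 1 and 77.2 on chromosome 7, where SMC3 had 95.5.

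A cohesin peak appeared under RAD21 siRNA at 646 of the 11788 sites (5.48%, 5.08 to 5.91). Of all control CTCF peaks 41.1% overlapped one, and of cohesin-bound peaks 61.0% (60.4 to 61.5). RAD21 was found at 512 sites (4.34%, 3.98 to 4.73), where all CTCF peaks had 38.6%, and SMC3 at 220 (1.87%, 1.63 to 2.13), where all had 24.8%. Both subunits were found at 86 sites (0.730%). The sites lay off control cohesin peaks by the rule, so siRAD21 cohesin peaks at them could seldom reach one. At 5 of the 646 sites such a peak did reach a control cohesin peak next to the site. The share grew with CTCF score, with 3.67% (3.23 to 4.16) at scores of 50 to 100 and 16.1% (13.4 to 19.1) at 400 and above. Cohesin-free peaks of the other targets had shares on both sides of this value. It was 10.5% for MYC, 7.81% for NIPBL, 6.79% for KLF5, 5.21% for RFX2, 4.29% for JUND, 3.84% for H3K4me1, 2.87% for HNF4A and 1.01% for REST.

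These cohesin peaks were weak. The 505 RAD21 peaks at the sites had a median score of 67.4 (lowest 50.0, highest 299.6), against 107 for all 19752 siRAD21 RAD21 peaks. Of these 505 peaks, 84.2% scored under 100, against 46.7% of the list. The 220 SMC3 peaks had a median of 62.1 (lowest 50.0, highest 182), against 84.4 for the list. A siRAD21 cohesin peak with an FDR under 5% was found at 140 of the 646 sites (21.7%), and its summit lay within 250 bp of the CTCF summit at 430 (66.6%, 62.8 to 70.2). Few siRAD21 cohesin peaks were at the sites at all. They made up 2.56% of the RAD21 list and 1.75% of the SMC3 list. Among the 2245 siRAD21 RAD21 peaks that touched no control cohesin peak, 500 (22.3%) were at the sites, and among 1358 such SMC3 peaks 220 (16.2%). The same control RAD21 and SMC3 calls chose the sites, so these shares are set in part by the rule and are a description.

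The sites with a siRAD21 cohesin peak were wider and more crowded than the others. Their median CTCF width was 1499 bp with 50.5 tags, against 1267 bp and 29 tags at the other 11142 sites. CTCF was found again at 63.8% of them (59.9 to 67.5), against 32.8% (32.0 to 33.7), a difference at like strength of 18.4 points (15.0 to 21.8). Under RAD21 siRNA, JUND was present at 47.1% (43.2 to 51.0) against 7.21%, MYC at 38.9% (35.1 to 42.7) against 4.63%, NIPBL at 31.0% (27.4 to 34.7) against 3.37%, and HNF4A at 21.7% (18.6 to 25.05) against 3.02%. H3K4me1 was present at 64.6% (60.7 to 68.2) against 25.6%. In the control lists the same comparison gave smaller gaps. It gave 3.25% against 1.43% for JUND, 24.5% against 7.50% for MYC, 11.1% against 3.45% for NIPBL, 5.26% against 2.90% for HNF4A, and 50.3% against 24.7% for H3K4me1.

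Cohesin under RAD21 siRNA thus went with the number of other siRAD21 peaks at a site. Where none of the 8 other targets had one, a cohesin peak was present at 197 of 8230 sites (2.39%, 2.07 to 2.75). With 3 targets it was 21.9% of 433 (18.1 to 26.1), and with 5 it was 54.1% of 133 (45.3 to 62.8). All siRAD21 lists with rabbit antibodies were called against the same siRAD21 rabbit IgG library of 4101535 tags, which they share; its part in the overlap was not tested. Without CTCF peaks that held 4 or more targets under either siRNA, 4.09% of the sites (3.73 to 4.47) had a siRAD21 cohesin peak.

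**Figure D5:**
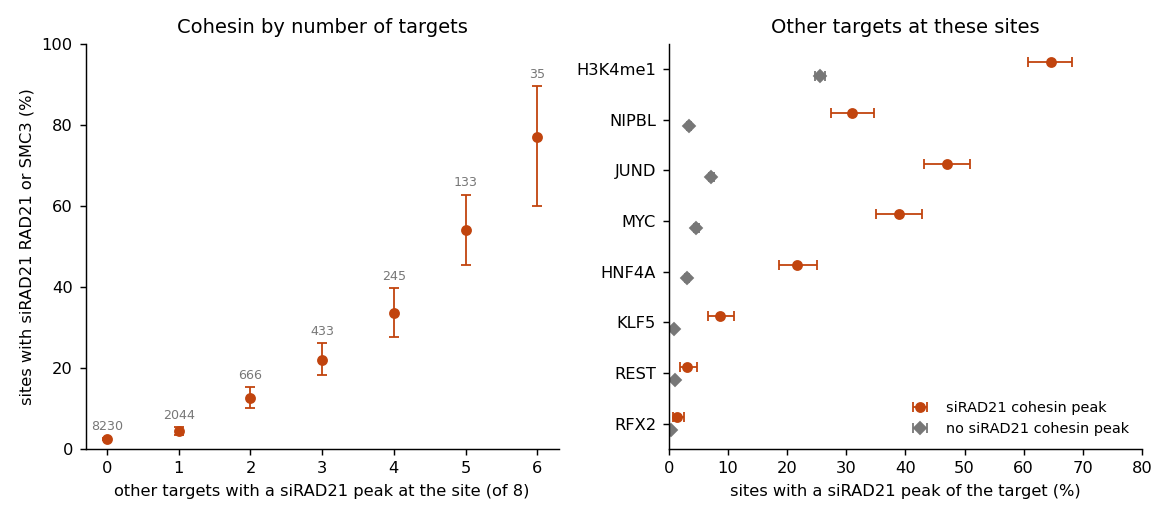
Left, share of CTCF sites without control cohesin that had a RAD21 or SMC3 peak under RAD21 siRNA (%, with 95% Clopper-Pearson intervals), by the number of the 8 other targets with a siRAD21 peak at the site; grey figures give the number of sites, and 2 sites with 7 targets are not drawn. Right, share of sites with a siRAD21 peak of each target (%), with and without a siRAD21 cohesin peak. The share is 2.39% with no other target and 77.1% with 6, and JUND is at 47.1% against 7.21%.

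The 5 sites with the highest siRAD21 cohesin scores had modest CTCF peaks, with control scores of 54.0 to 295, and RAD21 scores of 215 to 299.6. The first, at chr3:50333516-50335204, had NIPBL scores of 572 under RAD21 siRNA and 926 under control siRNA and H3K4me1 scores of 1954 and 2088. Its HNF4A and MYC peaks were called under RAD21 siRNA and not under control siRNA. At chr17:1756574-1758223 a weak CTCF peak with a score of 54.0 lay 96 bp from a control cohesin peak, and RAD21 had 299 there under RAD21 siRNA. At chr14:38971574-38972928 NIPBL had 844 and 1128, and at chr2:44076883-44078229 it had 533 and 1147. NIPBL was thus present under both siRNAs at 3 of these 5 sites, which were picked by their cohesin score. Over all sites it was present under both at 181 of 11788, and over all control CTCF peaks at 524 of 44027. The fifth, at chr19:54668272-54670521, had RAD21 and SMC3 scores of 215 and 119 under RAD21 siRNA, and none of the 8 other targets there had a control peak.

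Other sites were crowded under control siRNA. The most targets at 1 site was 6 of 8, at 15 sites. At the 4 named here, taken by CTCF score, the 6 were NIPBL, H3K4me1, HNF4A, JUND, KLF5 and MYC. The strongest lay at chr17:52537722-52541096, with a CTCF score of 579 under RAD21 siRNA and 915 under control siRNA, and there H3K4me1 was the sole other target with a siRAD21 peak. At chr1:199130097-199133204 HNF4A had 373 and 1357, and 5 of the other targets had siRAD21 peaks. At chr1:154297250-154298505 and at chr9:138777508-138781739, 1 and 2 of the other targets had one. CTCF was found again at all 4, and no cohesin subunit had a peak at any of them under RAD21 siRNA.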

How the data were processed

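The submitters' processing notes name CASAVA 1.4, BWA, MACS 1.4 and the hg18 build. The authors called peaks in each library with MACS 1.4.0rc2 against an IgG library (goat for CTCF and RFX2, rabbit for the others), at a p cutoff of 1e-05, per the file headers. Each deposited peak has a tag count (repeated positions removed), a score of −10 × log10 p, a fold enrichment (a ratio over the IgG background) and an FDR in percent. Of 10 deposited columns 9 are named. The unnamed one was read as the FDR, because its values under 5 matched the label counts in all 22 lists.

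All deposited peaks were used. Overlaps (at least 1 bp), exact Clopper-Pearson intervals and Mantel-Haenszel differences with Sato intervals were computed in Python 3.11.15 and checked on simulated data. The sites, targets and alternatives were chosen with earlier results of these data known. Regions were named by rank, leaving out chromosomes 8 and Y and unplaced sequences: 5 strongest sites without cohesin under either siRNA, 5 with the highest siRAD21 cohesin score, 4 strongest without siRAD21 CTCF within 1000 bp, 4 with the most targets, and 2 on each side of the rule's border. Nothing is replicated, so no p-value was computed. Gene annotation of hg18 was not used here.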

Additional observations from a re-analysis of the deposited data

Results flagged for a closer look

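For 3 targets the difference between the siRNAs ran in opposite directions at the sites and at cohesin-bound CTCF peaks. The share of CTCF peaks with NIPBL under RAD21 siRNA minus that under control siRNA was 1.02 percentage points at the sites and −5.64 at cohesin-bound peaks. For H3K4me1 it was 1.64 points at the sites and −1.72 at cohesin-bound peaks. For HNF4A it was 1.01 points at the sites and −1.22 at cohesin-bound peaks. These opposite directions were not tested, since each share comes from 1 library. The control lists of these targets shared their IgG library with the control RAD21 and SMC3 lists that chose both groups. The directions may thus be set in part by the rule and are a description. All 53581 siRAD21 H3K4me1 peaks, but 41418 of 61108 control ones, had an FDR under 5%. With that limit the control H3K4me1 share of the sites was 19.99%, against 27.7% under RAD21 siRNA. The siRAD21 libraries held 0.528 of the control tags for H3K4me1, 0.558 for HNF4A and 0.352 for NIPBL.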

How the results depend on the processing

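No paired analysis was possible because each target has 1 library per siRNA. The share of control CTCF peaks without cohesin (26.8%) was 32.0% with cohesin peaks at an FDR under 5%, 15.7% with CTCF peaks at an FDR under 5%, 15.4% with CTCF scores of at least 100, 25.4% where cohesin within 1000 bp counted as shared, 28.9% with cohesin summits within 250 bp, 28.2% with cohesin over at least 50% of the CTCF peak, 32.6% by RAD21 only and 31.2% by SMC3 only. In the order of these settings, the retained share of the sites (34.5%) was 35.9%, 54.8%, 55.6%, inside the main interval, 36.3%, 36.8%, 37.0% and inside it. It was 30.4% by CTCF summits within 250 bp and, in a setting added after the data were seen, 37.0% by CTCF peaks within 1000 bp. The difference in retained share at like strength (−3.76 points) was 0.715 with CTCF peaks at an FDR under 5%, 0.857 with scores of at least 100, −1.35 by cohesin summits, −2.02 by RAD21 only, −43.6 without strata, −1.34 with 20 strata, −16.7 with strata of fold enrichment and 2.66 with strata of tags. The cause of these sign changes was not tested.

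The share of sites with a siRAD21 cohesin peak (5.48%) was 6.005% with control cohesin at an FDR under 5%, 7.71% with CTCF at that FDR, 7.74% with CTCF scores of at least 100, 7.62% by cohesin summits, 7.33% with cohesin over at least 50% of the peak, 6.63% by RAD21 only and 6.40% by SMC3 only in the rule. It was 1.19% for siRAD21 cohesin peaks at an FDR under 5%, 3.65% for their summits within 250 bp, 4.34% for RAD21, 1.87% for SMC3 and 4.09% without crowded peaks. The control H3K4me1 share (26.1%) was 27.6% and 27.8% with the CTCF limits, 28.6% by cohesin summits, 27.1% by RAD21 only, 22.7% with the CTCF summit inside the mark, 19.99% for H3K4me1 at an FDR under 5% and 23.1% without crowded peaks. Its difference at like strength (2.88 points) was 6.59 and 6.69 with the CTCF limits, 1.35 where cohesin within 1000 bp counted, 8.52 by cohesin summits, 4.25 by RAD21 only, 0.600 by SMC3 only, 1.29 with the summit inside the mark, 1.31 without strata and 7.86 with strata of width. The share with no other target (70.5%) was 68.2% and 68.1% with the CTCF limits, 67.8% by cohesin summits, 69.4% by RAD21 only, 73.4% with the summit inside the other peak and 86.1% for the 6 factors alone. The other 20 values stayed inside the main interval. The siRAD21 CTCF library had 0.346 of the control tags, and its part in the retained shares was not tested.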

Other observations

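Seen from the other lists, the sites were touched by 9.44% of siRAD21 NIPBL peaks and 3.93% of control NIPBL peaks, by 8.87% and 3.85% of JUND peaks, by 10.4% and 7.20% of MYC peaks, by 8.76% and 5.78% of KLF5 peaks and by 6.65% and 3.19% of HNF4A peaks. H3K4me1 had 6.13% and 5.11%, REST 3.10% and 2.80%, and RFX2 5.10% and 6.35%. Cohesin-bound CTCF peaks were touched by 11.2% of siRAD21 and 19.4% of control NIPBL peaks, and by 9.32% and 14.0% of KLF5 peaks. Other lists had larger shares there under RAD21 siRNA too, with 12.7% and 12.2% of JUND peaks, 10.8% and 9.98% of HNF4A peaks and 11.8% and 11.2% of H3K4me1 peaks. The differences between these shares were not tested.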
